A study of Bombyx mori with 3 samples.

Results

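The comparison describes silk gland cells of the silkworm Bombyx mori at the first larval molt (1LM) against day 1 of the first larval instar (1L1D), over whole libraries. Of 13513 deposited cell barcodes in these libraries, 11464 were kept, namely 7125 of 7513 at 1LM and 4339 of 6000 at 1L1D. A barcode was kept if no more than 30% of its unique molecular identifiers (UMIs, each marking 1 captured RNA molecule) came from mitochondrially encoded genes and if its ratio of UMIs to detected genes lay within 2 SD of the mean of its library. The UMIs of each gene were then summed over the kept barcodes and expressed as counts per 1000000 UMIs of the library (CPM).

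Both groups came from the Nistari strain under standard rearing, and the labels name no genetic change or drug for either. For each stage about 2000 intact glands were pooled, dissociated with enzyme and passed through a sieve, and 1 droplet library of polyadenylated RNA was made with a 3′ single-cell kit. The remaining library of the series, from embryos 8 days after egg laying (E8D), is cited only where its values bear on a gene. With 1 library per stage there were no replicates, so stage and library cannot be told apart. No test was made between stages, and the 95% intervals in parentheses after ratios are exact conditional binomial intervals that cover counting error only. Each molecule was counted once near its 3′ end, so levels were set side by side between genes without a correction for length. In sums over a library, fewer cells of a type and less RNA per cell cannot be told apart.

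The silk gland is a tube of epithelial cells whose middle and posterior regions secrete sericins and fibroin, while its anterior duct is lined with a cuticle, as are the epidermis and the tracheae. At a larval molt, a pulse of the steroid 20-hydroxyecdysone binds the receptor EcR/USP and starts a cascade of transcription factors, under which old cuticle is loosened and digested and new cuticle is laid down. Juvenile hormone, present at the same time, keeps the molt larval rather than metamorphic.

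The kept barcodes held 13120838 UMIs at 1LM and 18546139 at 1L1D. The median barcode held 1465 UMIs and 682 genes at 1LM, against 1845 UMIs and 446 genes at 1L1D, and the median mitochondrial share was 4.69% at 1LM and 15.6% at 1L1D. The deepest 10% of barcodes held 25.1% of the UMIs at 1LM and 42.8% at 1L1D. The ratio filter removed 381 barcodes at 1LM and 370 at 1L1D, and the mitochondrial limit was exceeded by 7 at 1LM and 1292 at 1L1D. Before filtering, the libraries held 16578633 UMIs at 1LM and 32588033 at 1L1D. Shares and CPM therefore describe the kept barcodes only. The libraries shared 12 barcode sequences. The label silk gland was met at both stages: the fibroin heavy chain row FIBH and the light chain gene Fib-l were among the 10 most abundant genes of each library, and after each barcode was thinned to 1000 UMIs, FIBH had a UMI in 98.5% of barcodes at 1LM and 93.5% at 1L1D. Since free RNA can give such UMIs, shares of barcodes with a UMI are not read as shares of expressing cells.

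The 1L1D library was more uneven than the 1LM library. The most abundant gene took 2.26% of UMIs at 1LM and 8.25% at 1L1D, and the 100 most abundant genes of each library took 43.6% at 1LM and 69.1% at 1L1D. At least 1 UMI was found for 12681 genes at 1LM and 11183 at 1L1D. Over the 7012 genes with at least 100 UMIs in either library the median gene had a CPM 2.26-fold higher at 1LM, a shift of 1.18 on the log2 scale. Ratios are therefore given as the log2 ratio of CPM, 1LM over 1L1D, minus this shift, called the relative log2 ratio, and a gene was called higher or lower where it lay at least 2-fold from the median gene. A gene that lay between 0 and 1.18 below the median gene on this scale still had a higher CPM at 1LM. Where a gene had 0 UMIs at 1L1D, 3 UMIs were put in their place and the ratio is a lower bound.

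By this rule 1236 genes (17.6%) were higher at 1LM and 1012 (14.4%) were lower, 2248 (32.1%) in all, while 4764 were neither. By CPM alone, 4108 genes (58.6%) were at least 2-fold higher and 368 (5.25%) were at least 2-fold lower. The middle of the distribution was narrow, with the 25th and 75th percentiles at relative log2 ratios of -0.61 and 0.65, whereas the tails were long: 313 genes were at least 16-fold higher and 146 at least 16-fold lower, and 47 were at least 256-fold higher and 9 at least 256-fold lower. Of the higher genes, 73 had no UMI at 1L1D, and 3 of the lower genes had none at 1LM. Close to a 2-fold limit, within 0.1 on the log2 scale, lay 456 genes. Most genes with a written description are cluster markers that the study picked on these same libraries: of 2214 such genes, 800 were higher and 491 lower, against 436 and 521 of the 4798 genes without one. Lists built from descriptions thus draw on genes of which 36.1% were higher and 22.2% lower. Counts of a list near these shares do not set it apart from such genes.

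**Figure D1:**
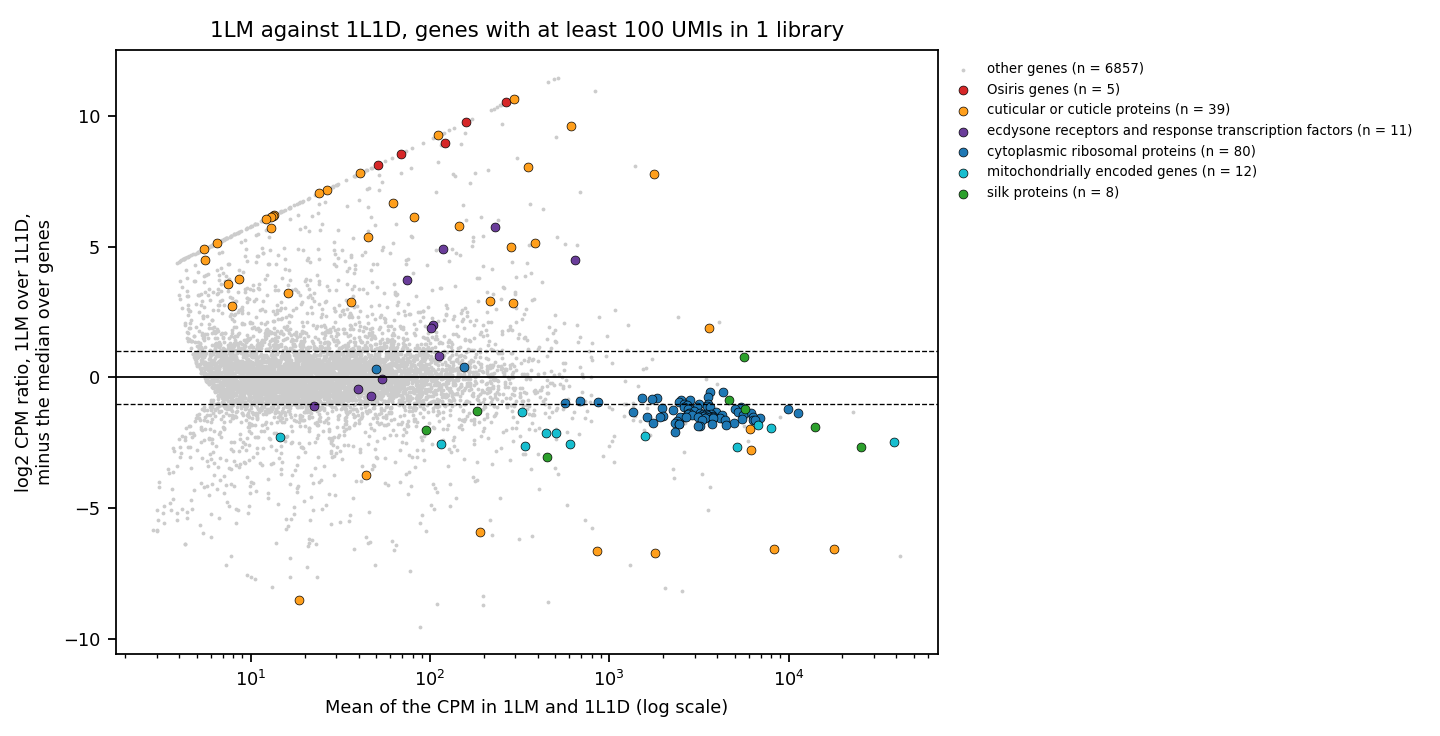
Each point is 1 of 7012 genes, with the mean CPM of both libraries on a log axis and the relative log2 ratio (1LM over 1L1D, minus the median over genes) on the vertical axis; dashed lines mark 2-fold, counts under 3 were set to 3, and the straight upper edge holds genes with at most 3 UMIs at 1L1D. Of the 80 ribosomal protein genes, which lie at high levels, 65 were called lower and 15 lie within 2-fold of the median gene, and the 39 cuticular protein genes and 5 Osiris genes lie far from it; without subtraction of the median, the ribosomal protein genes would lie close to 0.

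Most transcription factors of the ecdysone cascade were higher at 1LM. Of 12 receptors and response transcription factors in the list, 11 had enough UMIs, and 6 were higher (54.5%) and 1 lower (9.09%), with a median relative log2 ratio of 1.88. The shares were 17.6% and 14.4% of all genes, and 36.1% and 22.2% of genes with a description. By CPM alone 8 of the 11 were at least 2-fold higher, beside 58.6% of all compared genes. Hr3 (hormone receptor 3), a nuclear receptor of the early-late response to ecdysone that in Drosophila activates Ftz-f1, had 6006 UMIs (458 CPM) at 1LM and 69 UMIs (3.72 CPM) at 1L1D, and its relative log2 ratio was 5.76 (5.42 to 6.13). Grf, the silkworm counterpart of the early-late receptor Hr4, had 3060 UMIs (233 CPM) at 1LM and 63 UMIs (3.40 CPM) at 1L1D, a relative log2 ratio of 4.92 (4.56 to 5.31). Both receptors were near the lower edge of detection at 1L1D and abundant at 1LM.

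Br-c (Broad-Complex), a zinc finger factor directly induced by ecdysone, had 16652 UMIs (1269 CPM) at 1LM and 458 UMIs (24.7 CPM) at 1L1D, and its relative log2 ratio was 4.51 (4.37 to 4.64). It was the most abundant factor of the list at 1LM, with a UMI in 54.2% of thinned barcodes there and in 2.56% at 1L1D. Ftz-f1, the receptor expressed as ecdysone declines before ecdysis, had 1885 UMIs (144 CPM) at 1LM and 89 UMIs (4.80 CPM) at 1L1D, a relative log2 ratio of 3.73 (3.42 to 4.05). E74, an ETS-domain early gene, had 2461 UMIs (188 CPM) at 1LM and 381 UMIs (20.5 CPM) at 1L1D, a relative log2 ratio of 2.01 (1.86 to 2.17). The receptor EcR had 2380 UMIs (181 CPM) at 1LM and 405 UMIs (21.8 CPM) at 1L1D, a relative log2 ratio of 1.88 (1.72 to 2.03).

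The other members were within 2-fold of the median gene or below it. E75, a haem-binding early receptor, had 2353 UMIs (179 CPM) at 1LM and 828 UMIs (44.6 CPM) at 1L1D, a relative log2 ratio of 0.83 (0.71 to 0.94), which is under the 2-fold limit. USP, the partner of EcR, had 305 UMIs (23.2 CPM) at 1LM and 403 UMIs (21.7 CPM) at 1L1D, so that its CPM was nearly the same and its relative log2 ratio was -1.08 (-1.30 to -0.86), a sign that turned to 0.10 without subtraction of the median. Kr-h1, the zinc finger factor induced by juvenile hormone, had 715 UMIs (54.5 CPM) at 1LM and 736 UMIs (39.7 CPM) at 1L1D; its relative log2 ratio was -0.72 (-0.87 to -0.57), and by CPM alone it was higher at 1LM. The 2 remaining receptors, LOC692364 and LOC101745160, had relative log2 ratios of -0.06 and -0.43. At E8D, Hr3 and Ftz-f1 had 78 and 61 UMIs, while Br-c had 1581 and Grf had 558, so Br-c and Grf had more UMIs in the smaller E8D library than at 1L1D.

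**Figure D2:**
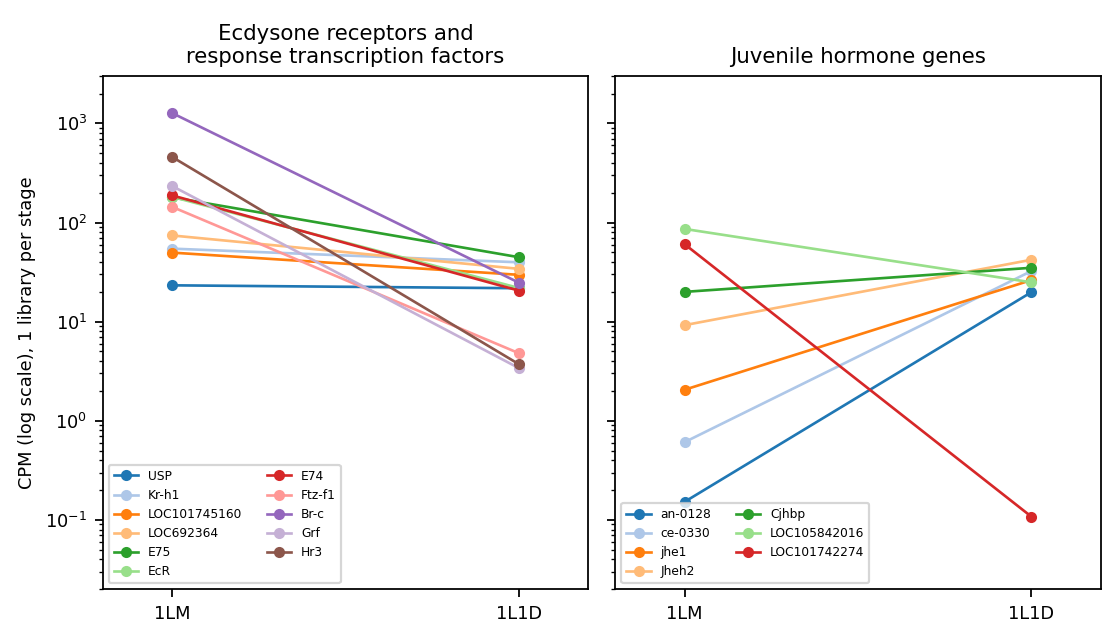
CPM on a log axis for 11 ecdysone receptors and response transcription factors (left) and 7 juvenile hormone genes (right), with 1LM left of 1L1D and 1 library per stage. The points of Hr3, Grf, Br-c and Ftz-f1 lie far higher at 1LM than at 1L1D, those of 5 genes that bind or degrade juvenile hormone lie lower at 1LM, and LOC101742274 is at 792 UMIs at 1LM and 2 at 1L1D.

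Of genes that make or inactivate ecdysteroids, 10 were matched and 2 had enough UMIs. Cyp18a1, a cytochrome P450 that inactivates 20-hydroxyecdysone and is itself induced by it, had 289 UMIs (22.03 CPM) at 1LM and 24 UMIs (1.29 CPM) at 1L1D, a relative log2 ratio of 2.91 (2.31 to 3.58). Ecdysone oxidase LOC100302629 lay at 0.86, but in barcodes below the median depth, where it had 121 UMIs at 1LM and 5 at 1L1D, at 2.68. LOC692400, annotated as an ecdysteroid-inducible angiotensin-converting enzyme-related protein, was lower, with 324 UMIs (24.7 CPM) at 1LM and 1924 UMIs (104 CPM) at 1L1D and a relative log2 ratio of -3.25 (-3.42 to -3.08).

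Juvenile hormone genes with enough UMIs were mostly lower. Of 15 matched genes 7 had enough UMIs, and 1 was higher and 5 lower (71.4%), with a median relative log2 ratio of -3.37. Of all genes 14.4% were lower, and of genes with a description 22.2%. The 8 genes left out had small counts, and none had fewer UMIs at 1LM than at 1L1D. Among them, the esterase-like LOC101743505 had 58 UMIs at 1LM and 5 at 1L1D, and Jheh-lp4 had 37 and 4. Binding proteins of the hormone were the furthest down: an-0128 had 2 UMIs (0.152 CPM) at 1LM and 368 UMIs (19.8 CPM) at 1L1D, and ce-0330 had 8 UMIs (0.610 CPM) at 1LM and 601 UMIs (32.4 CPM) at 1L1D, relative log2 ratios of -8.20 (-11.25 to -6.34) and -6.91 (-8.13 to -5.92). The degrading enzymes differed among themselves. Juvenile hormone esterase jhe1 had 27 UMIs (2.06 CPM) at 1LM and 487 UMIs (26.3 CPM) at 1L1D and lay at -4.85 (-5.47 to -4.29), and epoxide hydrolase Jheh2 lay at -3.37 (-3.66 to -3.09), whereas a second gene annotated as juvenile hormone esterase, LOC105842016, had 1130 UMIs (86.1 CPM) at 1LM and 462 UMIs (24.9 CPM) at 1L1D and lay at 0.61 (0.45 to 0.77). The cytosolic binding protein Cjhbp lay at -1.99 (-2.20 to -1.78). LOC101742274, annotated as a basic juvenile hormone-suppressible protein, was the single higher gene, with 792 UMIs (60.4 CPM) at 1LM and 2 UMIs (0.108 CPM) at 1L1D and a relative log2 ratio of 7.95 (6.09 to 10.999).

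Structural proteins of the cuticle differed in level between the stages in both directions, and some, such as CPR90, were abundant at both. Over all cuticular protein families, with 3 further genes known only by descriptions as cuticle proteins, 211 genes were matched and 39 had enough UMIs, of which 30 were higher and 9 lower with none between, and the median relative log2 ratio was 4.98. The other 172 had too few UMIs to enter. A gene could enter through 1 library alone, and 6 of the 39 had 0 UMIs at 1L1D. A gene almost absent from 1 library could enter only with a large ratio, so the call of such a gene follows from the entry rule. In sum these genes took 2.51% of UMIs at 1LM and 7.47% at 1L1D. Without LOC101736156, 1 of the 3 further genes, the shares were 2.43% at 1LM and 3.98% at 1L1D. The shares of the 39 genes were 76.9% higher and 23.1% lower. They were 17.6% and 14.4% of all genes, and 36.1% and 22.2% of genes with a description. The lower share of the 39 genes was thus near that of genes with a description.

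Proteins with the Rebers and Riddiford motif (RR), which binds chitin, gave 15 genes of either type with enough UMIs, 12 higher and 3 lower. The list of either type was added after values were seen. The RR-1 gene CPR34, of the type usual in soft cuticle, had 16067 UMIs (1225 CPM) at 1LM and 13 UMIs (0.701 CPM) at 1L1D, a relative log2 ratio of 9.59 (8.82 to 10.50). The RR-2 gene CPR128, of the type usual in hard cuticle, had 7714 UMIs (588 CPM) at 1LM and 1 UMI (0.0539 CPM) at 1L1D, a relative log2 ratio of 12.23 (9.76 to 17.54). CPR34 and CPR128 had at most 27 UMIs in any other library, and CPR123 had 635 UMIs at 1LM, 0 at 1L1D and 0 at E8D. Others were lower. CPR90 had 40035 UMIs (3051 CPM) at 1LM and 172501 UMIs (9301 CPM) at 1L1D, a relative log2 ratio of -2.79 (-2.80 to -2.77). The RR-1 gene CPR56 was lower as well, at -3.74 (-3.98 to -3.51), while CPR91 had 7213 UMIs (549.7 CPM) at 1LM and 635 UMIs (34.2 CPM) at 1L1D and lay at 2.83 (2.71 to 2.95).

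The Tweedle family, cuticular proteins that shape the larval body in Drosophila, was higher in both measured members. CPT3 had 46457 UMIs (3541 CPM) at 1LM and 134 UMIs (7.23 CPM) at 1L1D, the sixth largest gain in CPM of any gene, and its relative log2 ratio was 7.76 (7.51 to 8.01). CPT2 had 2925 UMIs (223 CPM) at 1LM and 1 UMI (0.0539 CPM) at 1L1D, a relative log2 ratio of 10.84 (8.36 to 16.14). Glycine-rich cuticular proteins gave 7 higher genes and 1 lower of 8. CPG9 had 9232 UMIs (704 CPM) at 1LM and 22 UMIs (1.19 CPM) at 1L1D and lay at 8.03 (7.43 to 8.71), and CPG14 and CPG24 had 1068 and 696 UMIs at 1LM against 0 and 0 at 1L1D, lower bounds of 7.80 and 7.18. CPG6 was the lower gene of the 8, with 996 UMIs (75.9 CPM) at 1LM and 64986 UMIs (3504 CPM) at 1L1D and a relative log2 ratio of -6.71 (-6.80 to -6.62), and it was high in the embryo too, with 50448 UMIs at E8D.

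Hypothetical cuticular proteins, a group defined by sequence features of cuticle rather than by 1 motif, divided into 7 higher and 4 lower of 11. CPH43 was the most abundant at 1LM, with 84421 UMIs (6434 CPM) at 1LM and 14079 UMIs (759 CPM) at 1L1D, a relative log2 ratio of 1.91 (1.88 to 1.93). CPH28 and CPH19 were lower in level and further from the median gene, at 5.12 and 5.78. On the other side, CPH21 had 5152 UMIs (393 CPM) at 1LM and 299746 UMIs (16162 CPM) at 1L1D, a relative log2 ratio of -6.54 (-6.58 to -6.50), and CPH4 had 499 UMIs (38.03 CPM) at 1LM and 30963 UMIs (1669.5 CPM) at 1L1D, at -6.63 (-6.76 to -6.51). LOC101736156, annotated as cuticle protein 6.4 and known by its description only, was the most abundant cuticle gene at 1L1D, although the later RefSeq assembly types its transcript as miscellaneous RNA, with 10919 UMIs (832 CPM) at 1LM and 648093 UMIs (34945 CPM) at 1L1D and a relative log2 ratio of -6.57 (-6.60 to -6.54). LOC101738507, annotated as larval cuticle protein 5-like, had 7376 UMIs (562 CPM) at 1LM and 146 UMIs (7.87 CPM) at 1L1D and lay at 4.98 (4.74 to 5.23). LOC101736156 was still found at 1LM, with a UMI in 32.8% of thinned barcodes at 1LM, against 84.3% at 1L1D.

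Proteins that bind or organize chitin were higher with the cuticular proteins. Of 7 obstructor and gasp genes, secreted proteins with chitin-binding domains that in Drosophila arrange the chitin matrix, 6 were higher and none lower. The gasp gene LOC733010 had 36719 UMIs (2799 CPM) at 1LM and 85 UMIs (4.58 CPM) at 1L1D, a relative log2 ratio of 8.08 (7.77 to 8.40), and a UMI in 74.2% of thinned barcodes at 1LM against 0.30% at 1L1D. The obstructor-E genes LOC101739926 and LOC101740330 lay at 7.42 (6.71 to 8.22) and 4.75 (4.44 to 5.08), and LOC101743739, with 2191 UMIs at 1LM and 1601 at 1L1D, lay at -0.23 (-0.32 to -0.13).

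Enzymes of both synthesis and breakdown of chitin were higher. Of 10 measured genes 9 were higher and none lower, with a median relative log2 ratio of 2.63. Chitin synthase A (LOC100884166), which makes the chitin of cuticle, had 3271 UMIs (249 CPM) at 1LM and 400 UMIs (21.6 CPM) at 1L1D, a relative log2 ratio of 2.35 (2.20 to 2.51). Among breakdown enzymes, which open the old cuticle at a molt, the chitinase Chi had 301 UMIs (22.9 CPM) at 1LM and 2 UMIs (0.108 CPM) at 1L1D and lay at 6.55 (4.69 to 9.61), and probable chitinase 10 (LOC101736080) had 2792 UMIs (213 CPM) at 1LM and 60 UMIs (3.24 CPM) at 1L1D and lay at 4.86 (4.49 to 5.26). The β-N-acetylglucosaminidases, which finish chitin breakdown, lay nearer to the median gene, with 1.28 for GlcNAcase1 and 0.12 for GlcNAcase3. LOC101746073, which the study's annotation pairs with the name Cht10, had 2395 UMIs (183 CPM) at 1LM and 2 UMIs (0.108 CPM) at 1L1D.

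Peptidases and carboxypeptidases, classes of enzyme found in molting fluid, were mostly higher. Molting fluid carboxypeptidase A, Mf-cpa, had 994 UMIs (75.8 CPM) at 1LM and 2 UMIs (0.108 CPM) at 1L1D, a relative log2 ratio of 8.28 (6.42 to 11.33), and the carboxypeptidase B-like gene LOC100301505 had 5785 UMIs at 1LM and 0 at 1L1D, a lower bound of 10.23. Near-identical members of protease and cuticle families may split reads between them, so values of single genes there are uncertain. Of 9 measured serine proteinases 7 were higher and 2 lower. The lists of serine proteinases and carboxypeptidases were added after values were seen. The higher ones included 3 genes annotated as stubble, a transmembrane protease that in Drosophila acts in epithelial shape change: LOC101735715, LOC101742565 and LOC101744820 had 1378, 1238 and 491 UMIs at 1LM and 3, 3 and 1 at 1L1D. LOC101744823, annotated as venom serine protease, was lower, at -2.54 (-2.66 to -2.42).

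Enzymes of cuticle tanning, which crosslink and darken new cuticle, were less uniform. Of 11 measured genes 5 were higher (45.5%) and 2 lower (18.2%), and the median relative log2 ratio was 0.79. These shares lie near the 36.1% and 22.2% of genes with a description, so the counts do not set the list apart from such genes. Laccase-2 (LOC101736241), the oxidase of cuticle hardening, had 754 UMIs (57.5 CPM) at 1LM and 46 UMIs (2.48 CPM) at 1L1D and lay at 3.36 (2.93 to 3.82). The melanin-promoting gene Y-y (yellow-y) had 1023 UMIs (77.97 CPM) at 1LM and 1 UMI (0.0539 CPM) at 1L1D, at 9.32 (6.84 to 14.62), and its relative Y-e had 432 UMIs at 1LM and 0 at 1L1D. By contrast yellow-b (Y-b) had 37 UMIs (2.82 CPM) at 1LM and 775 UMIs (41.8 CPM) at 1L1D, at -5.07 (-5.58 to -4.59). Aanat, which acetylates dopamine and so limits dark pigment, had 398 UMIs (30.3 CPM) at 1LM and 4242 UMIs (229 CPM) at 1L1D, at -4.09 (-4.24 to -3.94), and tan lay at -0.02.

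**Figure D3:**
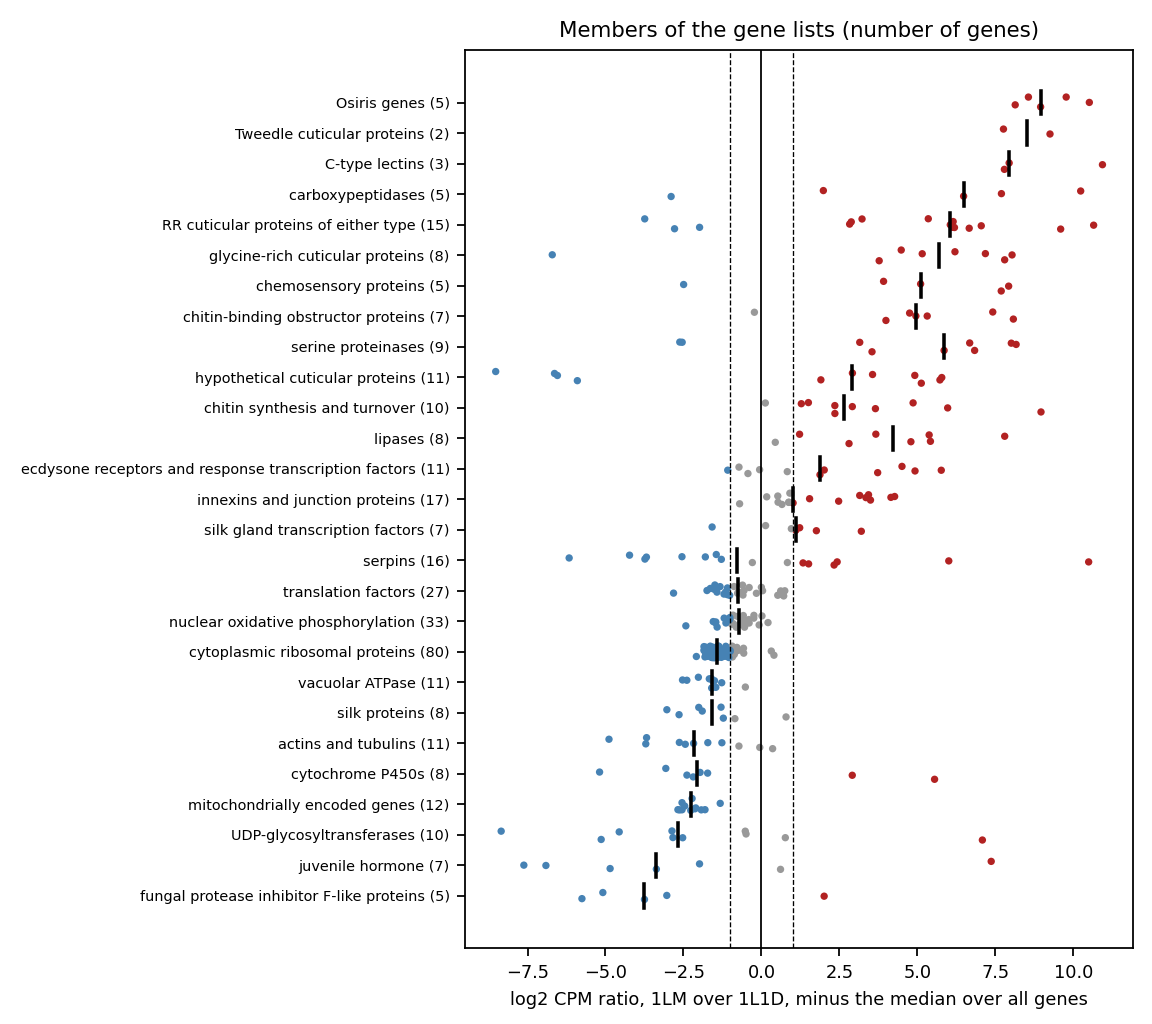
Relative log2 ratio (1LM over 1L1D, minus the median over all genes) of each member with at least 100 UMIs in either library, for 27 gene lists with the number of genes in parentheses; points are genes, red called higher, blue called lower, grey neither, short bars are medians of the list and dashed lines mark 2-fold. Osiris, Tweedle and C-type lectin genes lie right of the median gene throughout, ribosomal protein genes at a median of -1.41 lie left of it (at -0.24 by CPM alone), and serpins and cytochrome P450s have members on both sides. The lists of RR proteins of either type, serine proteinases, carboxypeptidases, C-type lectins, lipases and fungal protease inhibitors were added after values were seen.

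The Osiris genes, an insect family of membrane proteins that in Drosophila appear in cuticle-forming epithelia during cuticle secretion, had at most 4 UMIs each at 1L1D. Of 6 matched genes 5 had enough UMIs and all 5 were higher. With at most 4 UMIs at 1L1D, a gene could enter only through 1LM, so these 5 calls follow from the entry rule. Osi9 had 7010 UMIs (534 CPM) at 1LM and 0 at 1L1D, a lower bound of 10.51 on the relative log2 scale, Osi19 had 4191 and 0, Osi20 had 1811 and 0, and Osi7 had 1350 and 0. Osi18 had 3166 UMIs (241 CPM) at 1LM and 4 UMIs (0.216 CPM) at 1L1D, a relative log2 ratio of 8.95 (7.59 to 10.83). None of these 5 genes had a UMI at E8D. The sixth gene, Osi21, had 13 UMIs at 1LM and 3 at 1L1D and was not compared. Osi9 was concentrated in fewer barcodes than Br-c, with a UMI in 13.9% of thinned barcodes at 1LM.

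Neighbours of Osiris genes were higher with them. In the gene order of a later RefSeq assembly, Osi7, Osi9 and Osi18 lay in a run of 19 consecutive measured genes that were all called higher, the longest such run in the comparison. The 19 genes summed to 65160 UMIs at 1LM, 540 at 1L1D and 166 at E8D. At 1L1D 9 of them had 0 UMIs and 5 had 1 to 3, and 14 had 0 at E8D. The most abundant were uncharacterized genes: LOC101741151 had 17906 UMIs (1365 CPM) at 1LM and 82 UMIs (4.42 CPM) at 1L1D, LOC101741954 had 13533 UMIs (1031 CPM) at 1LM and 3 UMIs (0.162 CPM) at 1L1D, and LOC101741384 had 11917 UMIs at 1LM and 0 at 1L1D. With counts under 3 set to 3, LOC101741954 had the highest ratio of the 7012 genes, at 11.46 (9.91 to 13.74). The gene at one end of the run, LOC101738974, lay at 1.01, and the run also held the cecropin-like genes LOC101739536 and LOC101739821, antimicrobial peptides by annotation, with 104 and 107 UMIs at 1LM against 2 and 0 at 1L1D. Of the 11 flanking genes examined, 1 was called higher and 4 were called lower; the 2 that adjoin the run could not be higher, since the run ends where a gene is not called higher.

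**Figure D4:**
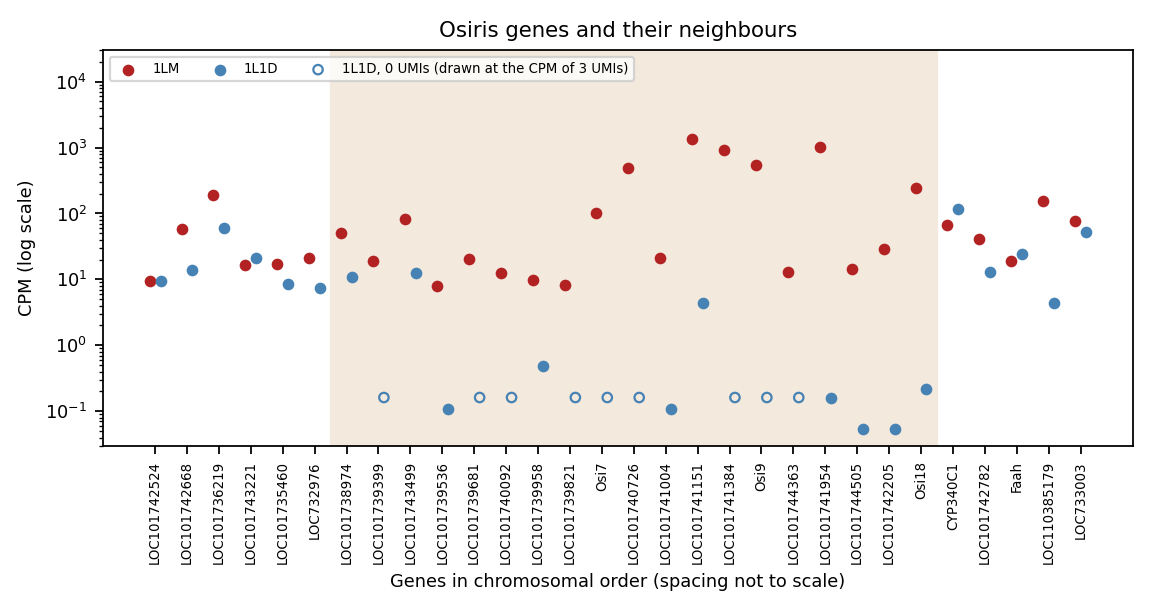
CPM on a log axis at 1LM (red) and 1L1D (blue) for a run of 19 neighbouring genes called higher (shaded) and 11 flanking genes, in chromosomal order with spacing not to scale; open circles mark 0 UMIs at 1L1D, drawn at the CPM of 3 UMIs. Inside the shading 9 genes have open circles, and outside it all 11 genes have UMIs in both libraries.

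Over the whole gene order, neighbouring genes were often called in the same direction. Among genes placed on that assembly, 46.8% of 1059 higher genes had a measured neighbour that was also higher, while 29.4% of all 6475 placed genes had a higher neighbour. For lower genes the shares were 36.0% of 925 and 26.1%. These shares include the run of 19 higher genes above and a run of 12 lower mitochondrially encoded genes. A run of 6 higher genes held gasp and 4 obstructor-E genes, and a run of 5 held the chemosensory protein genes CSP13, CSP14 and CSP6 and the cuticular gene CPG19. Runs of lower genes held LOC101736156 and CPH27 with a pair of unannotated transcripts, and 4 fungal protease inhibitor F-like genes. Genes of a family that lie side by side can share reads, and such sharing was not tested.

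Chemosensory proteins, small carriers of hydrophobic molecules, gave 4 higher and 1 lower of 5 genes. CSP16 had 3629 UMIs (277 CPM) at 1LM and 11 UMIs (0.593 CPM) at 1L1D and lay at 7.69 (6.85 to 8.69), CSP14 had 1167 UMIs at 1LM and 0 at 1L1D, and CSP9 lay at -2.50 (-3.001 to -2.01). Carriers of lipids in the α-tocopherol transfer and takeout families gave 9 higher and 3 lower of 14, from LOC101743183 at 7.90 to LOC101742992 at -7.46. The lists of lipid carriers and lipases were added after values were seen. The takeout gene LOC101744689 had 2813 UMIs (214 CPM) at 1LM and 13 UMIs (0.701 CPM) at 1L1D, at 7.08 (6.30 to 7.99). Of 8 lipases 7 were higher and none lower, among them the pancreatic triacylglycerol lipase gene LOC101737746, with 5132 UMIs (391 CPM) at 1LM and 75 UMIs (4.04 CPM) at 1L1D and a relative log2 ratio of 5.42 (5.09 to 5.77). The fatty acyl-CoA reductase LOC101740654, annotated as wat after a Drosophila gene needed for gas filling of tracheae, had 6548 UMIs (499 CPM) at 1LM and 3 UMIs (0.162 CPM) at 1L1D, at 10.41 (8.87 to 12.69).

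Secreted inhibitors included both higher and lower genes within a family. Serpins, which trap serine proteases, gave 6 higher and 8 lower of 16 genes, with a median of -0.79 that turned to 0.39 by CPM alone. LOC100272001, serpin 27, had 6906 UMIs at 1LM and 0 at 1L1D, a lower bound of 10.49, and serpin-6 had 6273 UMIs (478 CPM) at 1LM and 61 UMIs (3.29 CPM) at 1L1D, at 6.01 (5.64 to 6.39). The lower members were led by serpin-32 with 17 UMIs (1.30 CPM) at 1LM and 762 UMIs (41.1 CPM) at 1L1D, at -6.17 (-6.95 to -5.48), and by serpin-10 with 300 UMIs (22.9 CPM) at 1LM and 3514 UMIs (189 CPM) at 1L1D, at -4.23 (-4.40 to -4.06). Fungal protease inhibitor F-like genes gave 1 higher and 4 lower of 5: LOC101738434 had 5839 UMIs (445 CPM) at 1LM and 123791 UMIs (6675 CPM) at 1L1D, at -5.08 (-5.12 to -5.05), whereas LOC110384718 had 30097 UMIs (2294 CPM) at 1LM and 4668 UMIs (252 CPM) at 1L1D, at 2.01 (1.97 to 2.05). All 3 measured C-type lectins, proteins that bind sugars on microbes and other surfaces, were higher. The lists of C-type lectins, mucins and fungal protease inhibitors were added after values were seen. CTL4 had 21898 UMIs (1669 CPM) at 1LM and 7 UMIs (0.377 CPM) at 1L1D, at 10.93 (9.89 to 12.25), and a UMI in 62.6% of thinned barcodes at 1LM against 0.02% at 1L1D. Of 6 mucins, heavily glycosylated surface proteins, 4 were higher and none lower, led by LOC101743000 with 6582 UMIs (502 CPM) at 1LM and 5 UMIs (0.270 CPM) at 1L1D.

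Silk protein genes stood below the median gene, though they remained abundant. Of 10 matched genes 8 were measured, and 0 were higher and 6 lower, with a median relative log2 ratio of -1.60. By CPM alone the median was -0.42, with 1 gene at least 2-fold higher and 2 at least 2-fold lower. The share of all UMIs in silk protein genes was 4.43% at 1LM and 6.77% at 1L1D. FIBH, the fibroin heavy chain that forms the core of the fibre, had 176245 UMIs (13432 CPM) at 1LM and 686998 UMIs (37043 CPM) at 1L1D, a relative log2 ratio of -2.64 (-2.65 to -2.63). Fib-l, the light chain bound to it, had 138934 UMIs (10589 CPM) at 1LM and 323558 UMIs (17446 CPM) at 1L1D, at -1.90 (-1.91 to -1.89). P25, the glycoprotein that completes the fibroin complex, had 2300 UMIs (175 CPM) at 1LM and 3527 UMIs (190.2 CPM) at 1L1D, nearly the same CPM, at -1.30 (-1.37 to -1.22). A further row, FIBH-2, had 896 UMIs (68.3 CPM) at 1LM and 2254 UMIs (122 CPM) at 1L1D, and since it may be a near-identical copy, heavy chain counts are partial and uncertain.

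Sericins, the glue proteins of the middle gland, differed from each other. The sericin 1-like gene LOC101740082 had 2574 UMIs (196 CPM) at 1LM and 13156 UMIs (709 CPM) at 1L1D, at -3.03 (-3.09 to -2.97), whereas sericin 2, Ser2, had 118589 UMIs (9038 CPM) at 1LM and 42899 UMIs (2313 CPM) at 1L1D, the second largest gain in CPM of any gene. Its CPM was 3.91-fold higher at 1LM and its relative log2 ratio 0.79 (0.77 to 0.80), so it was not called. It passed the 2-fold limit, at 1.44, with each barcode given the same weight, and at 1.71 in barcodes below the median depth. Ser2 had a UMI in 95.8% of thinned barcodes at 1LM and 30.6% at 1L1D. The seroin genes, small antimicrobial silk proteins, lay at -1.22 for LOC692598 and -0.85 for LOC105842464, the last higher at 1LM by CPM alone.

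Transcription factors of the silk gland did not follow the silk genes. Of 10 matched 7 were measured, and 4 were higher and 1 lower, with a median of 1.10. SGF1, the forkhead factor that activates sericin 1 and fibroin genes, had 5886 UMIs (449 CPM) at 1LM and 1085 UMIs (58.5 CPM) at 1L1D, at 1.76 (1.67 to 1.86). The homeobox gene LOC692747 (Antennapedia) had 162 UMIs (12.3 CPM) at 1LM and 11 UMIs (0.593 CPM) at 1L1D, at 3.20 (2.32 to 4.23), and dimm, a bHLH factor of secretory cells, lay at 1.23 (1.03 to 1.42). Arrowhead, Awh, a LIM-homeodomain activator of fibroin genes, had 244 UMIs (18.6 CPM) at 1LM and 71 UMIs (3.83 CPM) at 1L1D, at 1.10 (0.72 to 1.50); in barcodes below the median depth of each library its sign turned to -0.29. The bHLH factor sage lay at 0.13, and at -0.93 in those barcodes. Fmbp-1, which binds the fibroin modulator, had 77 UMIs (5.87 CPM) at 1LM and 144 UMIs (7.76 CPM) at 1L1D, at -1.58 (-2.001 to -1.17).

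Genes of protein synthesis lay below the median gene as a body, and their direction depends on that reference. Of 80 measured cytoplasmic ribosomal protein genes 0 were higher and 65 lower, with a median relative log2 ratio of -1.41, but by CPM alone the median was -0.24 and 2 genes were at least 2-fold higher and 0 at least 2-fold lower. They took 25.5% of UMIs at 1LM and 29.2% at 1L1D. The range was narrow: RpS7, the lowest, had 21200 UMIs (1616 CPM) at 1LM and 56269 UMIs (3034 CPM) at 1L1D, at -2.09 (-2.11 to -2.06), and RpL7Ae, the highest, had 3060 UMIs (233 CPM) at 1LM and 1448 UMIs (78.1 CPM) at 1L1D, at 0.40 (0.31 to 0.49). Of 27 translation factors 0 were higher and 12 lower, with a median of -0.76 that turned to 0.41 by CPM alone. EF1a had 105250 UMIs (8022 CPM) at 1LM and 185200 UMIs (9986 CPM) at 1L1D, at -1.49 (-1.51 to -1.48), and the furthest was LOC732945, annotated as a 4E-binding protein, which represses initiation, with 1495 UMIs (114 CPM) at 1LM and 6587 UMIs (355 CPM) at 1L1D, at -2.82 (-2.90 to -2.74).

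Mitochondrially encoded genes were lower on either scale. All 12 measured genes were called lower, 7 of them by CPM alone, with medians of -2.25 relative to the median gene and -1.07 by CPM alone, and their share of UMIs was 3.91% at 1LM and 8.61% at 1L1D. This group also sets the barcode filter; with these genes left out of the totals, 1234 genes were higher and 1006 lower. COX1 had 297034 UMIs (22638 CPM) at 1LM and 1021292 UMIs (55068 CPM) at 1L1D, at -2.46 (-2.47 to -2.45). Nuclear genes of oxidative phosphorylation were closer to the median gene, with 0 higher and 9 lower of 33 and a median of -0.72 that turned to 0.46 by CPM alone. The vacuolar ATPase, a proton pump of vesicles and transporting epithelia, had 10 of 11 genes lower, with a median of -1.60, or -0.42 and 2 genes lower by CPM alone. Actins and tubulins had 8 lower and 0 higher of 11, and 5 lower and 2 higher by CPM alone: the cytoplasmic actin LOC101741610 had 1090 UMIs (83.1 CPM) at 1LM and 20159 UMIs (1087 CPM) at 1L1D, at -4.89 (-4.98 to -4.80), and the α-tubulin Tua1 had 12706 UMIs (968 CPM) at 1LM and 103751 UMIs (5594 CPM) at 1L1D, at -3.71 (-3.74 to -3.68), with the same uncertainty over near-identical copies.

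**Figure D5:**
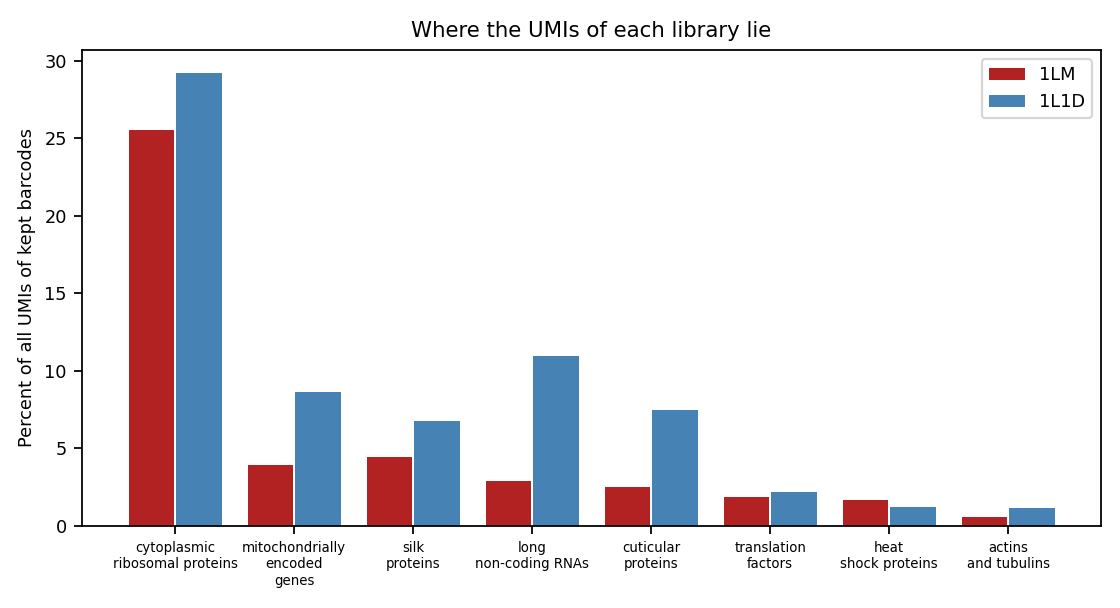
Percent of all UMIs of kept barcodes that fell to 8 gene groups, 1LM (red) left of 1L1D (blue), 1 library per stage, with the axis from 0. Ribosomal protein genes took 25.5% at 1LM and 29.2% at 1L1D, and mitochondrially encoded genes, silk proteins, long non-coding RNAs and cuticular proteins took smaller shares at 1LM than at 1L1D. Of the long non-coding RNAs, LOC101736020 alone took 0.165% at 1LM and 8.25% at 1L1D.

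Several transport and detoxification genes were far lower at 1LM. LOC105841947 was annotated as a trehalose transporter Tret1, which carries the main blood sugar of insects, though the study's text groups it with dynein-related genes. It had 70 UMIs (5.34 CPM) at 1LM and 16738 UMIs (903 CPM) at 1L1D, at -8.58 (-8.94 to -8.24). Trehalase LOC693027 had 53 UMIs (4.04 CPM) at 1LM and 1255 UMIs (67.7 CPM) at 1L1D, at -5.24 (-5.67 to -4.85). Other members of the list lay above the median gene: of 20 measured genes 9 were higher and 6 lower, and ST3 had 743 UMIs at 1LM and 0 at 1L1D, while the most abundant Tret1 gene at 1LM, LOC101746819, lay at 0.03. UDP-glycosyltransferases, which conjugate hormones, pigments and toxins, gave 1 higher and 6 lower of 10, with UGT41A2 at 36 UMIs (2.74 CPM) at 1LM and 7310 UMIs (394 CPM) at 1L1D, a relative log2 ratio of -8.34 (-8.86 to -7.87), and UGT10287B at 651 UMIs at 1LM and 0 at 1L1D. Cytochrome P450s gave 2 higher, among them Cyp18a1, and 6 lower of 8. Glutathione S-transferases gave 3 of each among 12, with GSTd1 at 4.32. Among genes of purine breakdown, the probable allantoicase LOC101742671 had 16 UMIs (1.22 CPM) at 1LM and 4045 UMIs (218 CPM) at 1L1D and xanthine dehydrogenase LOC101739179 had 10 UMIs (0.762 CPM) at 1LM and 497 UMIs (26.8 CPM) at 1L1D, at -8.66 (-9.47 to -7.96) and -6.31 (-7.38 to -5.42). The water channel gene Aqp had 34 UMIs (2.59 CPM) at 1LM and 1662 UMIs (89.6 CPM) at 1L1D, at -6.29 (-6.83 to -5.80). LOC101739179 and Aqp were chosen after their values were seen, as were LOC101741151 among the Osiris neighbours and the non-coding RNA LOC101737054.

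The largest difference in CPM was that of a transcript without protein annotation. LOC101736020, a long non-coding RNA by RefSeq biotype, had 21619 UMIs (1648 CPM) at 1LM and 1529541 UMIs (82472 CPM) at 1L1D, a relative log2 ratio of -6.82 (-6.84 to -6.80), and was the most abundant gene of the 1L1D library. Of 710 matched long non-coding RNAs 91 were measured, with 38 higher (41.8%) and 17 lower (18.7%), beside 17.6% and 14.4% of all genes. The 710 took 2.89% of UMIs at 1LM and 10.9% at 1L1D. LOC101736020 alone took 0.165% of UMIs at 1LM and 8.25% at 1L1D, so it made up most of the share at 1L1D only. LOC101736292, in the same run of 4 lower genes, had 28 UMIs (2.13 CPM) at 1LM and 7279 UMIs (392 CPM) at 1L1D, at -8.70 (-9.29 to -8.17). Another long non-coding RNA, LOC101737054, was the second most abundant gene at 1LM, with 283556 UMIs (21611 CPM) at 1LM and 445655 UMIs (24029.5 CPM) at 1L1D, at -1.33 (-1.34 to -1.32). Genes with large losses of CPM also included LOC778506, uncharacterized, with 517 UMIs (39.4 CPM) at 1LM and 93447 UMIs (5039 CPM) at 1L1D, and LOC101746931, annotated after a Balbiani ring protein, a secreted salivary protein of midges, with 10499 UMIs (800.2 CPM) at 1LM and 121078 UMIs (6528 CPM) at 1L1D. The largest gain was LOC101745505, annotated as trichohyalin-like, with 98199 UMIs (7484 CPM) at 1LM and 14053 UMIs (758 CPM) at 1L1D, at 2.13 (2.10 to 2.15). Cathepsin B (LOC692390), a lysosomal cysteine protease, had the fifth largest gain, with 57966 UMIs (4418 CPM) at 1LM and 7345 UMIs (396 CPM) at 1L1D, at 2.30 (2.27 to 2.34).

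Among the 12 highest and 12 lowest ratios, with counts under 3 set to 3, were genes outside the groups described. On the high side LOC101746589, uncharacterized, had 12935 UMIs (986 CPM) at 1LM and 2 UMIs (0.108 CPM) at 1L1D, at 11.98 (10.13 to 15.03), and LOC101736159, annotated as eisosome protein SEG2, had 7318 UMIs (558 CPM) at 1LM and 1 UMI (0.0539 CPM) at 1L1D, at 12.16 (9.68 to 17.46). LOC101745570 and LOC101741917, both uncharacterized, and LOC101742180, annotated as a homolog of the transcription factor SPT20, had 8078, 6925 and 6728 UMIs at 1LM and 2 each at 1L1D. All 5 were thus close to absent at 1L1D.

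On the low side LOC101745614, uncharacterized, had the lowest ratio of the 7012 genes with counts under 3 set to 3, with 7 UMIs (0.534 CPM) at 1LM and 3239 UMIs (175 CPM) at 1L1D, at -9.53 (-10.85 to -8.49). The hypothetical cuticular protein gene CPH15, already counted among the 4 lower genes of its group, had 1 UMI (0.0762 CPM) at 1LM and 688 UMIs (37.1 CPM) at 1L1D, at -10.11 (-15.41 to -7.62). A far more abundant gene, LOC101736821, uncharacterized, had 458 UMIs (34.9 CPM) at 1LM and 74964 UMIs (4042 CPM) at 1L1D, at -8.03 (-8.17 to -7.90). LOC101746852, annotated as a ras-related growth inhibitor, LOC101738722, annotated as a dynein regulatory complex subunit, and the olfactory receptor gene Or-64 had 3, 7 and 1 UMIs at 1LM and 486, 858 and 389 at 1L1D. Large gains of CPM were also those of LOC110385036, uncharacterized, with 82689 UMIs (6302 CPM) at 1LM and 14105 UMIs (761 CPM) at 1L1D, at 1.87 (1.85 to 1.90), and of LOC101744736, annotated as the clathrin coat assembly protein AP180, with 62393 UMIs (4755 CPM) at 1LM and 40726 UMIs (2196 CPM) at 1L1D, which lay at -0.06, next to the median gene.

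Junction genes were at or above the median gene for the most part. Of 17 measured innexins, cadherins, catenins and other junction proteins 9 were higher and none lower, with a median of 1.01. The higher ones included LOC101739311 and LOC101743456, both annotated as cadherin-related tumor suppressors, large cadherins of tissue polarity and growth, at 4.27 (3.70 to 4.91) and 4.15 (3.39 to 5.03), and cadherin-99C (LOC101741348) at 3.50 (3.096 to 3.92). Heat shock proteins and cochaperones were close to the median gene, with 1 higher and 7 lower of 38 and a median of -0.07, which turned to 1.11 by CPM alone. Hsp90 had 69118 UMIs (5268 CPM) at 1LM and 51083 UMIs (2754 CPM) at 1L1D, at -0.24 (-0.26 to -0.23), and Hsp21.4 had 7121 UMIs (543 CPM) at 1LM and 27135 UMIs (1463 CPM) at 1L1D, at -2.61 (-2.65 to -2.57).

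Markers of other cell types that a dissected gland may carry were found in both libraries, and their members moved in different directions. The summed CPM of 9 muscle markers was 90.01 at 1LM and 80.3 at 1L1D, of 2 haemocyte markers 12.04 at 1LM and 4.58 at 1L1D, and of 5 fat body markers 712 at 1LM and 956 at 1L1D. Sums in this paragraph are plain CPM, by which the median gene was 2.26-fold higher at 1LM. The haemocyte marker with enough UMIs, PPO2, lay at 0.47 and was not called. Of the 2 muscle markers with enough UMIs, paramyosin (LOC101742177) was lower, with 31 UMIs (2.36 CPM) at 1LM and 603 UMIs (32.5 CPM) at 1L1D, at -4.96 (-5.53 to -4.44), and Kettin lay at -0.31. Of 3 such fat body markers 2 were lower, among them apolipophorins (LOC100862791), lipid carriers of the blood, with 7121 UMIs (543 CPM) at 1LM and 13060 UMIs (704 CPM) at 1L1D, at -1.55 (-1.60 to -1.51), and a UMI in 35.7% of thinned barcodes at 1LM and 19.2% at 1L1D. The 1 tracheal marker used, trh, had 236 UMIs (17.99 CPM) at 1LM and 34 UMIs (1.83 CPM) at 1L1D, at 2.12 (1.59 to 2.68). Whether its UMIs came from tracheal cells or from gland cells was not tested. The 10 midgut markers summed to 71.0 CPM at 1LM and 76.4 at 1L1D, with 4 and 6 of them at 0; the aminopeptidase N genes LOC101745887, LOC101737565 and LOC101744108 had enough UMIs and lay at 4.34, -1.83 and -5.17. The 4 neuron markers, synaptic genes of wide use among them, summed to 630 CPM at 1LM and 249 at 1L1D. Of these 4, 1 was called higher and 0 lower, with a median relative log2 ratio of -0.54. No list of epidermal markers apart from cuticle genes was used, and the part of tracheal or epidermal cells in the cuticle genes was not tested.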

How the data were processed

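Single-cell RNA-seq libraries of silk gland at 1LM and 1L1D were compared, with E8D as context. The authors mapped reads to the assembly ASM15162v1 with STAR in Cell Ranger 3.1.0 and deposited whole UMI counts per gene and barcode, without normalization. The study's methods also describe downsampling to join samples, while the deposited counts are single libraries, and the 1L1D table holds exactly 6000 barcodes. Barcodes with over 30% mitochondrial UMIs or a UMI to gene ratio beyond 2 SD of the library mean were removed. No doublet caller was run and no cells were clustered. UMIs were summed per gene and library and divided by the total to give CPM. Genes with at least 100 UMIs in 1 of the 2 libraries entered. Log2 ratios were read against their median, with exact conditional binomial intervals at 95% and a floor of 3 counts against 0. For shares of barcodes with a UMI, each barcode was thinned to 1000 UMIs (seed 1), and 1743 shallower barcodes at 1LM and 0 at 1L1D were left out. The depth of 13120838 UMIs at 1LM and 18546139 at 1L1D makes 3 counts worth 0.229 and 0.162 CPM.

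Genes were matched to lists by symbol or by the description in the study's supplementary annotation. Of 16880 genes, 13514 matched a symbol of the RefSeq table of ASM3026992v2, which was used for biotype and gene order only. The genes named were taken from the 12 highest and 12 lowest ratios, members of lists (any member up to 12 measured, otherwise the 5 highest, the 5 lowest and the 3 with the highest mean), the 10 largest gains and losses of CPM, and list members that the paper names; exceptions are stated, and list members not named enter only the counts of their list. The comparison, the genes and the lists were chosen with earlier results of these data known, and 9 lists (RR proteins of either type, cuticle proteins by description, serine proteinases, carboxypeptidases, fungal protease inhibitors, C-type lectins, mucins, lipid carriers, lipases) were added after values were seen. A planned search of promoters for motifs was not made, since no sequences were at hand. Alternatives numbered 16, among them edgeR 4.0.16 TMM and DESeq2 1.42.0 size factors in R 4.3.3 as the line for ratios, with no test. Python 3.11.15, numpy 2.4.6, scipy 1.17.1 and pandas 2.3.3 were used, and the computation of ratios was tested on simulated data.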

Additional observations from a re-analysis of the deposited data

How the results depend on the processing

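All 16 alternatives were planned. No paired analysis was possible because each stage has 1 library. The line for the ratios mattered most: without the median shift (0), 4108 genes were higher and 368 lower, so that 91.8% of calls were higher instead of 55.0%, of 43 lists with at least 5 measured genes those with at least 50% of them lower numbered 5 instead of 10, silk proteins had 1 higher and 2 lower, ribosomal proteins 2 higher and 0 lower, mitochondrially encoded genes 7 lower, ecdysone factors 0 lower, and USP turned to 0.10. The lines by edgeR TMM and DESeq2 size factors were both 1.17. The median shift was 1.36 with equal weight per cell, 1.50 in cells of 1000 to 4000 UMIs and 1.59 in cells below the median depth. A minimum of 300 UMIs gave 820 higher genes and 5 higher chitin genes, and genes with more than 3 UMIs gave 2302 higher and 1799 lower, with 56 higher and 20 lower cuticular proteins. Silk proteins had 1 higher gene, Ser2, with equal weight per cell, in cells of 1000 to 4000 UMIs, without the top 1% of cells and in cells below the median depth. Ecdysone factors had 0 lower with all barcodes and 2 with equal weight, and chitin genes 5 higher below the median depth. There Awh turned to -0.29, and LOC101739536, with 6 UMIs at 1LM and 0 at 1L1D, had a lower bound of -0.92, which shows no direction. Of named genes not called, LOC101745160 turned to 0.59, RpL7Ae to -0.46 and sage to -0.93 there, and LOC100302629 and GlcNAcase3 lay at 2.68 and 1.78. For the 145 named genes called, 2310 of 2313 values kept their direction, the bound counted among the others, and 2279 remained at least 2-fold. Of 1696 counts of other lists, 216 moved by over 1.5 times. Under no alternative was a gene called higher here called lower, or the reverse.

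Depth limits the low side: a ratio against 0 to 3 UMIs at 1L1D has no upper limit or a wide interval, and 9868 genes were not compared. Most of all, 1 library per stage leaves variation between samples unmeasured, and intervals cover counting error only. Causes of the changes named here were not tested.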

Other observations

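Lipid synthesis genes were spread on both sides of the median gene. Of 14 measured acyl-CoA desaturases, elongases and fatty acyl-CoA reductases 7 were higher and 2 lower, and the elongation genes LOC101746391 and LOC101737339 had 311 and 191 UMIs at 1LM and 0 and 0 at 1L1D. Immune effectors gave 3 higher (42.9%) and 2 lower (28.6%) of 7, not far from 36.1% and 22.2% of genes with a description. Lysozyme LOC101738343 had 16 UMIs (1.22 CPM) at 1LM and 835 UMIs (45.02 CPM) at 1L1D, a relative log2 ratio of -6.38 (-7.20 to -5.68). Among 3 lysosomal genes, fibroinase (Bcp), a cysteine protease able to degrade fibroin, lay at 0.13, unlike cathepsin B.

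In growth genes, 3 of 11 members of the insulin and TOR list were higher (27.3%) and 1 lower (9.09%), beside 36.1% and 22.2% of genes with a description. The growth regulator myc had 2256 UMIs (172 CPM) at 1LM and 642 UMIs (34.6 CPM) at 1L1D, at 1.13 (1.01 to 1.26). The insulin receptor InR lay at -0.83, though by CPM alone it was higher at 1LM. All 6 measured proteasome genes and all 7 apoptosis genes were within 2-fold of the median gene, with medians of 0.10 and -0.07. By CPM alone 5 and 5 of them were at least 2-fold higher, as were 58.6% of all compared genes. Genes of endoplasmic reticulum folding and translocation gave 2 higher (Ero1, an oxidase of disulfide formation, and calnexin LOC101736274) and 7 lower of 17. These were 11.8% and 41.2%, beside 36.1% and 22.2% of genes with a description. The median was -0.78 and turned to 0.40 by CPM alone.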
